A study of Mus musculus with 8 samples.

Results

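The genes described are 95 mouse genes of membrane traffic: 14 syntaxins, 6 VAMPs, 35 Vps genes, 10 Chmp genes and 30 sorting nexins. They are every gene of the array whose probe set carries exactly 1 symbol and whose symbol starts with Stx, Vamp, Vps, Chmp or Snx and a number, out of 19938 genes tested. For the 3 members with more than 1 probe set the one with the highest mean over the arrays was taken. They were measured in spleen dendritic cells of the XCR1+ type, which take up dead cells and present their antigens to CD8+ T cells, from Il12b-EYFP reporter mice, with no treatment named in the labels. The sort took lineage-negative Bst2-/low CD11c high CD8α+ cells and split them 3 ways. The groups were CCR7+Il12b+ cells (n = 2), CCR7+Il12b- cells (n = 3) and immature cells (CCR7-Il12b-, n = 3), with 1 array per sample, where CCR7 is the receptor that guides matured dendritic cells to lymph nodes and Il12b+ or Il12b- refers to the EYFP reporter. The labels give neither the age of the mice nor whether each replicate is a separate animal. The p-values therefore reflect only how far these samples scatter, and that scatter may be technical.

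SNARE proteins on a vesicle (mostly VAMPs) and on its target (mostly syntaxins) zip together and drive fusion. ESCRT complexes sort ubiquitinated receptors into the inner vesicles of multivesicular bodies, with ESCRT-III filaments (Chmp proteins) cut and recycled by the Vps4 ATPases. Retromer and the tubule-forming sorting nexins carry receptors the other way, from endosomes to the trans-Golgi network or the cell surface, while the HOPS, CORVET, GARP and EARP complexes hold vesicles at their target before fusion. In dendritic cells these steps decide where antigen, MHC molecules and cytokines go. All values below are log2 expression values of the array, and differences are log2 ± standard error with p-values from limma adjusted by Benjamini-Hochberg over all 19938 genes. A gene is said to rise or fall only at an adjusted p under 0.05. Levels of different genes were read by different probes and are not set against each other.

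The sort was visible in the arrays. Ccr7 stood at 12.77 and 12.46 in CCR7+Il12b+ cells, at 12.22, 12.24 and 12.20 in CCR7+Il12b- cells and at 8.50, 8.86 and 8.56 in immature cells. Il12b stood at 12.35 and 12.22, at 10.84, 10.82 and 10.77, and at 6.88, 7.09 and 7.11 in the same order of groups, so its transcript was also high in the cells sorted as reporter-negative. On the first principal component, which held 77.1% of the variance, CCR7+Il12b- replicate 3 lay at 30.1, apart from the other 2 of its group at 8.2 and 13.4 and nearer to the CCR7+Il12b+ samples at 52.2 and 53.6. Counts over all members are given with and without it, as are those over a class of members that it moves by over 1.5 times. All 10 markers of XCR1+ dendritic cells were above the background mark of 4.98 in every group, but their summed level was 82.61 to 83.44 in CCR7+Il12b+ cells, 92.74 to 99.06 in CCR7+Il12b- cells and 104.55 to 105.71 in immature cells, and Xcr1 itself fell in both matured fractions. Markers of other cells moved with the groups too. The summed level of 5 monocyte and macrophage markers was 37.40 to 37.91, 39.39 to 40.13 and 34.34 to 35.90 in that order, that of 6 CD11b+ dendritic cell markers 41.65 to 41.98, 43.87 to 44.51 and 36.66 to 40.47, that of 5 plasmacytoid dendritic cell markers 27.22 to 27.50, 28.91 to 30.26 and 32.62 to 32.75, that of 4 B cell markers 22.41 to 23.29, 24.53 to 25.59 and 21.39 to 22.89, and that of 4 erythroid markers 21.51 to 22.05, 21.49 to 21.75 and 19.44 to 20.47. Some of these sums hide markers that moved in opposite directions. In CCR7+Il12b+ against immature cells, 2 monocyte and macrophage markers rose and 2 fell. Of the CD11b+ dendritic cell markers 2 rose and 1 fell, of the B cell markers 1 and 1, and of the XCR1+ markers 1 and 9. Tmem176a was at 10.40 and 10.25 against 6.76, 7.07 and 7.54, and Cd209a at 5.19 and 5.36 against 7.03, 7.39 and 7.50. The summed level of 5 NK cell markers was 22.57 to 22.98 in CCR7+Il12b+, 24.19 to 25.37 in CCR7+Il12b- and 24.16 to 25.02 in immature cells. Klrk1 among them was at 5.91 and 5.53 in CCR7+Il12b+, at 7.81, 7.37 and 6.71 in CCR7+Il12b- and at 8.15, 8.41 and 8.25 in immature cells. The sum of 4 T cell markers was 17.17 to 17.88 in CCR7+Il12b+, 18.13 to 18.59 in CCR7+Il12b- and 17.36 to 17.75 in immature cells, and that of 5 neutrophil markers 22.89 in both CCR7+Il12b+, 22.64 to 23.47 in CCR7+Il12b- and 21.59 to 23.30 in immature samples. Above the mark were 3 of the 4 B cell markers in every group, with Ms4a1 at 8.10 and 7.70 in CCR7+Il12b+, at 8.91, 8.30 and 8.28 in CCR7+Il12b- and at 6.97, 6.96 and 7.03 in immature cells. The others were Cd79b and Pax5, and Cd79a lay below it. In CCR7+Il12b- against immature cells 3 of the 4 B cell markers rose and 0 fell. Of the T cell markers 1 of 4 was above the mark (Cd3e), and Cd3d, Cd3g and Cd28 below. Of the 5 NK cell markers 2 were above it in CCR7+Il12b+, 2 in CCR7+Il12b- and 1 in immature cells, with Ncr1, Klrb1c and Eomes below it in every group. Of the 5 neutrophil markers 2 were above it in CCR7+Il12b+, 3 in CCR7+Il12b- and 2 in immature cells, with Ly6g and Cxcr2 below it in every group. Their part in the results below was not tested. In such bulk samples fewer cells of a type and less RNA per cell cannot be told apart.

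Against immature cells, 15 of the 95 members rose and 27 fell in CCR7+Il12b+ cells. That is 44.2% of the members, where 32% of all genes were called, and 28.4% falling, where 17.9% of all genes fell. The rising share was 15.8%, close to the 14.1% of all genes. The median member differed by -0.10, the median of all genes by 0.09. With each array centred on its median, which moved the median of all genes from 0.0932 to -0.0466, 10 members rose and 35 fell. In CCR7+Il12b- cells against the same immature samples, 7 members rose and 23 fell, or 31.6% where 23.6% of all genes were called. The falling share was 24.2%, where 14.5% of all genes fell, and the rising share 7.37%, where 9.1% of all genes rose. The median was -0.12, against 0.06 over all genes. Without CCR7+Il12b- replicate 3, 7 rose and 15 fell. The count of falls was 10 without immature replicate 2 and 12 without immature replicate 3. No called member had overlapping groups. Both comparisons use the same 3 immature arrays and so are not independent. The members Chmp4c, Snx7, Snx31 and Snx33 lay below the background mark in every group, and the other 91 were above it in at least 1. Of the 19938 genes tested, 12925 were above background. The shares of all genes, here and below, also count the genes that were not. Such dim genes can lower those shares more than the members' shares. Whether the members' shares differ from those of the 12925 genes was not tested.

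**Figure D1:**
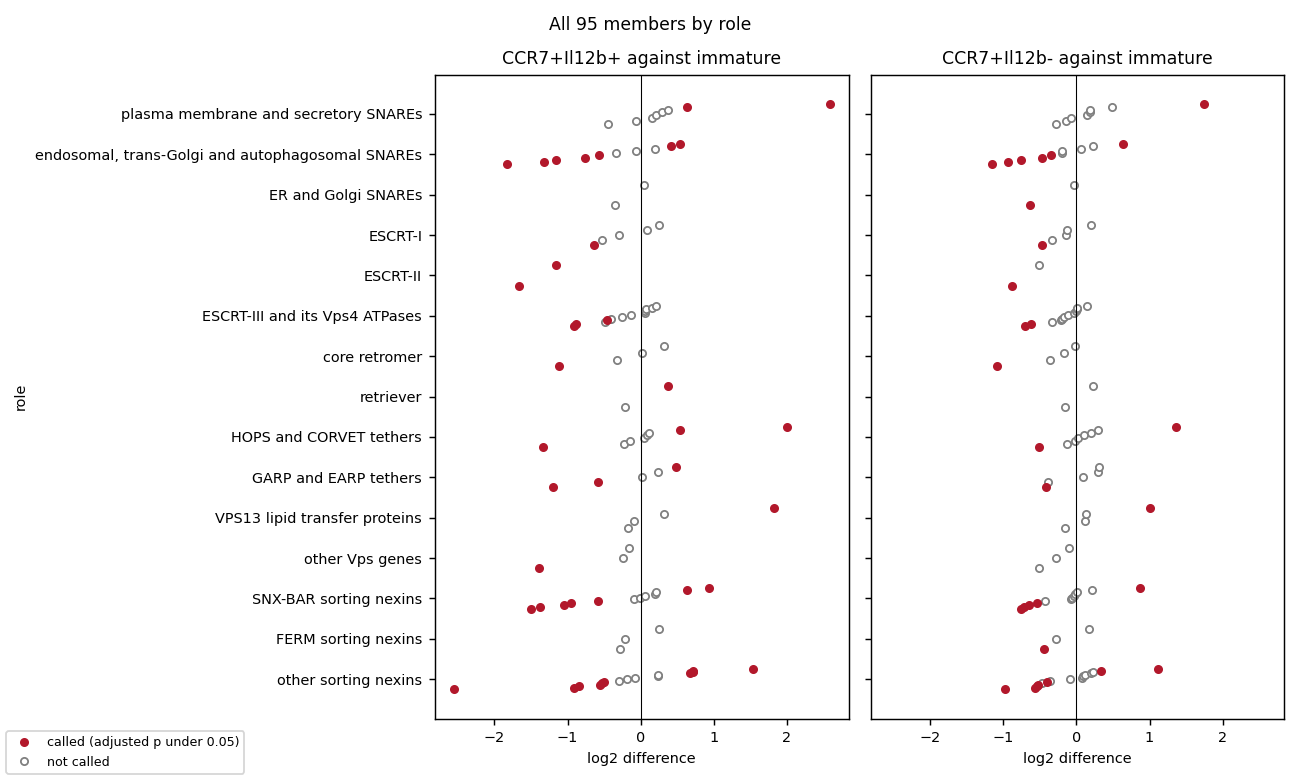
Difference from immature cells (x axis, log2) of all 95 members, grouped by role (y axis), in CCR7+Il12b+ cells (left) and CCR7+Il12b- cells (right). Each point is 1 gene, filled red where called. The rightmost points are Stx11 at 2.59 and 1.74, and the leftmost are Snx22 at -2.56 on the left and Vamp7 at -1.15 on the right.

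**Figure D2:**
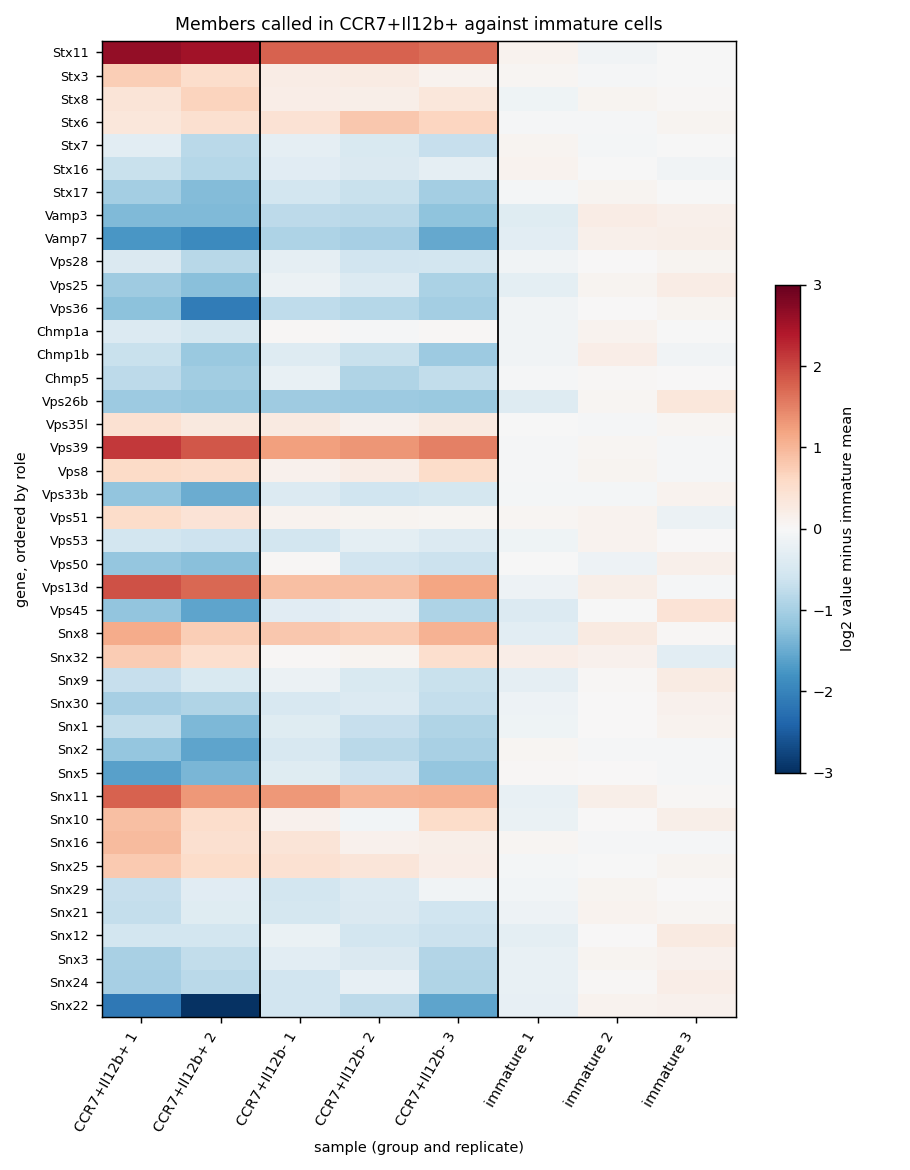
Value in each sample minus the immature mean (colour, log2) of the 42 members called in CCR7+Il12b+ against immature cells, ordered by role from top to bottom. The CCR7+Il12b- samples in the middle mostly take paler shades of the colour of the CCR7+Il12b+ samples on the left, with Vps26b and Snx8 about as strong in both fractions.

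The 250 bases before the start of transcription are shown for the 3 rising and the 3 falling members of largest change in CCR7+Il12b+ cells among those that have an entry in RefSeq's promoter table (GRCm38.p6), to show the start sites of members that changed far in each direction. Vps39 and Vamp7, which changed further than some of them, are not among the 6. They lie at chr10:12964260-12964509 (Stx11, minus strand), chr4:145195006-145195255 (Vps13d, minus), chr11:96777556-96777805 (Snx11, minus), chr9:66069760-66070009 (Snx22, minus), chr8:22192583-22192832 (Vps36, plus) and chr2:144270573-144270822 (Snx5, minus), each written 5′ to 3′ on the gene's strand. Capitals mark matches on either strand to GGGNNTTCC (a short form of the NF-κB pattern), GAAANNGAA (of the interferon regulatory factor pattern), CACGTG (the E-box bound by TFEB), GGGCGG (the GC box) or CCAAT (the CCAAT box).
Stx11: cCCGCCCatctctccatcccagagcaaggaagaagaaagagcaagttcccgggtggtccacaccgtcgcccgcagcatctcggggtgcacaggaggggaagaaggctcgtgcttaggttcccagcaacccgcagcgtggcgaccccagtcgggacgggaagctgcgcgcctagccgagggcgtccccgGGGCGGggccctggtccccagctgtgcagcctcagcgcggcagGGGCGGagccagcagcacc
Vps13d: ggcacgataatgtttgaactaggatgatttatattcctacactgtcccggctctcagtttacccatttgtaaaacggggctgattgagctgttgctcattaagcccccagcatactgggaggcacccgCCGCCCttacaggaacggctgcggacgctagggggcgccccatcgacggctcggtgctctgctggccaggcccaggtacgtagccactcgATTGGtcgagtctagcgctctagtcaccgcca
Snx11: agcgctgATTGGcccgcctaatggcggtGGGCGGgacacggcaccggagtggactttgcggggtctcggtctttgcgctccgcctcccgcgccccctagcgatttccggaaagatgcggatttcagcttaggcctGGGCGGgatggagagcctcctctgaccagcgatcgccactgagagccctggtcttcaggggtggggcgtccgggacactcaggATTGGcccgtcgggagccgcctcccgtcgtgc
Snx22: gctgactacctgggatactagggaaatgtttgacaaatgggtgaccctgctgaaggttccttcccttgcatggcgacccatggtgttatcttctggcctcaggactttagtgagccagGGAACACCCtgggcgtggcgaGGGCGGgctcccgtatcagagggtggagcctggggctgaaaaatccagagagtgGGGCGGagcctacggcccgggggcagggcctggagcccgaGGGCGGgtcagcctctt
Vps36: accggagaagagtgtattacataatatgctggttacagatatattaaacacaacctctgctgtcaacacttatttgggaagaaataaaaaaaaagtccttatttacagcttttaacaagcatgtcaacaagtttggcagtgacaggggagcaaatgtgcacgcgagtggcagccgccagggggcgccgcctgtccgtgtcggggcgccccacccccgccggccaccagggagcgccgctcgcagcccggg
Snx5: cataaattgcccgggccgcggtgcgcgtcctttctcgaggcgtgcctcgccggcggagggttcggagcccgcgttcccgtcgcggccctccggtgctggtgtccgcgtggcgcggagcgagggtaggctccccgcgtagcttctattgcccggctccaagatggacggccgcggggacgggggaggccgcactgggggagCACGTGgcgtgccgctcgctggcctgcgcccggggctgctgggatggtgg
The GC box was matched in Stx11, Vps13d, Snx11 and Snx22, the CCAAT box in Vps13d and Snx11, CACGTG in Snx5, GGGNNTTCC in Snx22, and no pattern in Vps36. Each of the 67 members with an entry gave 1 window, the one nearest its RefSeq gene start, while every window of the table was counted beside them. The 2 shares therefore do not compare windows chosen alike. GGGCGG was in 65.7% of the members' windows, against 32.7% of all 32851 windows of the table. CCAAT was in 31.3% against 33.8%, CACGTG in 11.9% against 6.02%, GAAANNGAA in 7.46% against 7.13% and GGGNNTTCC in 7.46% against 4.98%. Of the 10 members with an entry that rose in CCR7+Il12b+ cells, 8 held GGGCGG, 5 CCAAT, 2 CACGTG and 0 either of the other patterns. Of the 19 that fell, 11 held GGGCGG, 7 CCAAT, 1 CACGTG, 2 GAAANNGAA and 1 GGGNNTTCC. These are matches of letters in a window and say nothing of binding.

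Among the 8 SNAREs of the plasma membrane and of secretion, Stx11 rose the most of all members in both fractions. Syntaxin 11 works in granule release by cytotoxic lymphocytes, and in people its loss causes familial hemophagocytic lymphohistiocytosis. Stx11 was at 8.93 and 8.82 in CCR7+Il12b+ cells, at 8.06, 8.06 and 7.97 in CCR7+Il12b- cells and at 6.40, 6.19 and 6.28 in immature cells. The 3 groups formed 3 separate bands. The difference from immature cells was 2.59 ± 0.12 in CCR7+Il12b+ cells (6.005-fold, adjusted p = 5.54e-08) and 1.74 ± 0.10 in CCR7+Il12b- cells (3.35-fold, adjusted p = 7.73e-07). Stx3, a syntaxin of exocytosis, was at 7.29 and 7.07 in CCR7+Il12b+ cells, at 6.78, 6.79 and 6.64 in CCR7+Il12b- cells and at 6.60, 6.50 and 6.54 in immature cells. It rose in CCR7+Il12b+ cells by 0.63 ± 0.12 (adjusted p = 0.00153), while its 0.19 ± 0.10 in CCR7+Il12b- cells was not called. None of the other 6 (Stx1a, Stx2, Stx4a, Stx19, Vamp1 and Vamp5) was called against immature cells, and their differences in CCR7+Il12b+ cells ran from -0.45 for Vamp5 to 0.38 for Stx19. The rises, 2 and 1 of the 8, are 25% and 12.5%, beside 14.1% and 9.1% of all genes. The falls are 0 in both fractions, beside 17.9% and 14.5% of all genes. The probe set annotated to both Vamp2 and Ubr3 was not used.

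Among the Munc18-type proteins that clasp syntaxins, not all of which are named here, Stxbp3 and Stxbp2 rose, while Vps45 (below) fell in CCR7+Il12b+ cells. Scfd2 also fell, in both fractions (adjusted p = 0.00135 and 0.0414). It was at 4.73 and 4.70 in CCR7+Il12b+ cells, below the mark, and at 5.30, 5.58 and 5.41 in immature cells. Its CCR7+Il12b- call was lost without CCR7+Il12b- replicate 2 (0.116) or 3 (0.137), without immature replicate 2 (0.18) or 3 (0.105), and under a replicate block (0.0709). Stxbp3, known as a partner of syntaxin 4, was at 10.90 and 10.56 in CCR7+Il12b+ cells, at 9.82, 9.86 and 10.09 in CCR7+Il12b- cells and at 8.38, 8.05 and 8.27 in immature cells, with differences of 2.50 ± 0.15 (adjusted p = 4.68e-07) and 1.69 ± 0.13 (adjusted p = 8.44e-06) from immature cells. Stxbp2, the known partner of syntaxin 11, was at 9.46 and 9.27, at 9.43, 9.35 and 9.44, and at 9.02, 8.92 and 9.06 in the same groups. It rose by 0.36 ± 0.12 in CCR7+Il12b+ cells (adjusted p = 0.032) and by 0.41 ± 0.10 in CCR7+Il12b- cells (adjusted p = 0.0141). The CCR7+Il12b+ call was lost without CCR7+Il12b+ replicate 1 (adjusted p = 0.149) and without immature replicate 1 (0.0558), 2 (0.116) or 3 (0.0586), and with the compared groups only (0.0504) or under median centring (0.208). The CCR7+Il12b- call was lost without immature replicate 2 (adjusted p = 0.0736) and under median centring (0.0619). In all, 27 other SNAREs and fusion factors were measured of 29 listed, of which 4 rose and 4 fell in CCR7+Il12b+ cells and 3 rose and 5 fell in CCR7+Il12b- cells, with medians of -0.04 and -0.01. These shares, 14.8% rising and 14.8% falling in CCR7+Il12b+ cells and 11.1% and 18.5% in CCR7+Il12b- cells, are near those of all genes (14.1% and 17.9%, then 9.1% and 14.5%). Without CCR7+Il12b+ replicate 1 the rises in CCR7+Il12b+ cells were 2, and the falls in CCR7+Il12b- cells were 3 without CCR7+Il12b- replicate 3 and 2 without immature replicate 3. The rises in CCR7+Il12b+ cells count Napb, which lay below the mark in every sample. It was at 4.574 and 4.134 in CCR7+Il12b+ cells and at 3.786, 3.585 and 3.579 in immature cells. Sec22a, of the endoplasmic reticulum, rose by 1.24 ± 0.16 (adjusted p = 0.000111) and 1.09 ± 0.14 (adjusted p = 0.000263). Bet1, of transport from the endoplasmic reticulum to the Golgi, fell by 1.02 ± 0.22 in CCR7+Il12b- cells (adjusted p = 0.00542) and was at least 2.39-fold lower in CCR7+Il12b+ cells, where its mean of 4.75 was below the mark (6.24 in immature cells, adjusted p = 0.000599).

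The 10 SNAREs of endosomes, trans-Golgi network and autophagosomes had 2 rises and 5 falls in CCR7+Il12b+ cells and 1 rise and 5 falls in CCR7+Il12b- cells (medians -0.45 and -0.27). The falls are 50% of the class in each fraction, beside 17.9% and 14.5% of all genes. The rises are 20% and 10% of the class, beside 14.1% and 9.1% of all genes. The falls in CCR7+Il12b- cells were 3 without any 1 of the samples CCR7+Il12b- replicate 2 or 3 or immature replicate 1, 2 or 3. The 2 rises in CCR7+Il12b+ cells were 0 without CCR7+Il12b+ replicate 2 and 1 without any 1 of the immature samples. Vamp7, the SNARE of late endosomes and lysosomes that also serves lysosome secretion, was at 6.13 and 5.97 in CCR7+Il12b+ cells, at 6.96, 6.89 and 6.36 in CCR7+Il12b- cells and at 7.56, 8.04 and 8.06 in immature cells. Every matured sample lay below every immature one, with CCR7+Il12b- replicate 3 the closest to the CCR7+Il12b+ samples. Vamp7 differed by -1.83 ± 0.20 (3.56-fold lower, adjusted p = 3.35e-05) and -1.15 ± 0.18 (2.22-fold lower, adjusted p = 0.00082). Vamp3, the recycling endosome VAMP, was at 7.53 and 7.52 in CCR7+Il12b+ cells, at 8.06, 8.05 and 7.63 in CCR7+Il12b- cells and at 8.48, 9.06 and 8.996 in immature cells, and fell by 1.32 ± 0.19 (adjusted p = 0.00023) and 0.93 ± 0.17 (adjusted p = 0.00208). Stx17, which lets autophagosomes fuse with lysosomes, was at 7.62 and 7.32, at 8.09, 7.96 and 7.61, and at 8.58, 8.71 and 8.62, and fell by 1.16 ± 0.15 (adjusted p = 0.000146) and 0.75 ± 0.14 (adjusted p = 0.00244). Vamp8, another late endosome VAMP, was not called, with 95% intervals of its difference from -0.16 to 0.55 in CCR7+Il12b+ cells and from -0.26 to 0.38 in CCR7+Il12b- cells.

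The syntaxins of the trans-Golgi network went different ways. Stx6 was at 7.23 and 7.38 in CCR7+Il12b+ cells, at 7.33, 7.71 and 7.54 in CCR7+Il12b- cells and at 6.86, 6.85 and 6.96 in immature cells. Its rise in CCR7+Il12b- cells was 0.64 ± 0.12 (adjusted p = 0.00243). The rise in CCR7+Il12b+ cells, 0.41 ± 0.13 (adjusted p = 0.0335), was lost without CCR7+Il12b+ replicate 2 (adjusted p = 0.187), without immature replicate 1 (0.0737), 2 (0.0996) or 3 (0.0562), and under median centring (0.151), a mean-variance trend (0.0591) or array weights (0.052). Stx16 was at 7.78 and 7.58 in CCR7+Il12b+ cells, at 8.10, 8.02 and 8.19 in CCR7+Il12b- cells and at 8.56, 8.45 and 8.34 in immature cells, and fell in CCR7+Il12b+ cells by 0.76 ± 0.12 (adjusted p = 0.000559). Vps45, the Munc18-type partner of syntaxin 16, was at 5.56 and 5.15, at 6.41, 6.47 and 5.81, and at 6.33, 6.74 and 7.17. It fell in CCR7+Il12b+ cells by 1.39 ± 0.25 (2.62-fold lower, adjusted p = 0.00134). In CCR7+Il12b- cells its difference of -0.51 ± 0.23 was not called, and those samples overlapped the immature ones. Of the late endosomal pair, Stx8 differed in CCR7+Il12b+ cells by 0.54 ± 0.13 (adjusted p = 0.00759, but 0.0786 without CCR7+Il12b+ replicate 2) and Stx7 by -0.56 ± 0.17 (adjusted p = 0.0234, but 0.253 without CCR7+Il12b+ replicate 2, 0.0608 without immature replicate 1 and 0.0547 without immature replicate 3). Stx12 and Vamp4 were not called. Of the 2 SNAREs of the endoplasmic reticulum and Golgi, Stx18 fell in CCR7+Il12b- cells by 0.63 ± 0.12 (adjusted p = 0.00306), with -0.35 ± 0.14 in CCR7+Il12b+ cells (adjusted p = 0.0705), and Stx5a was not called.

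**Figure D3:**
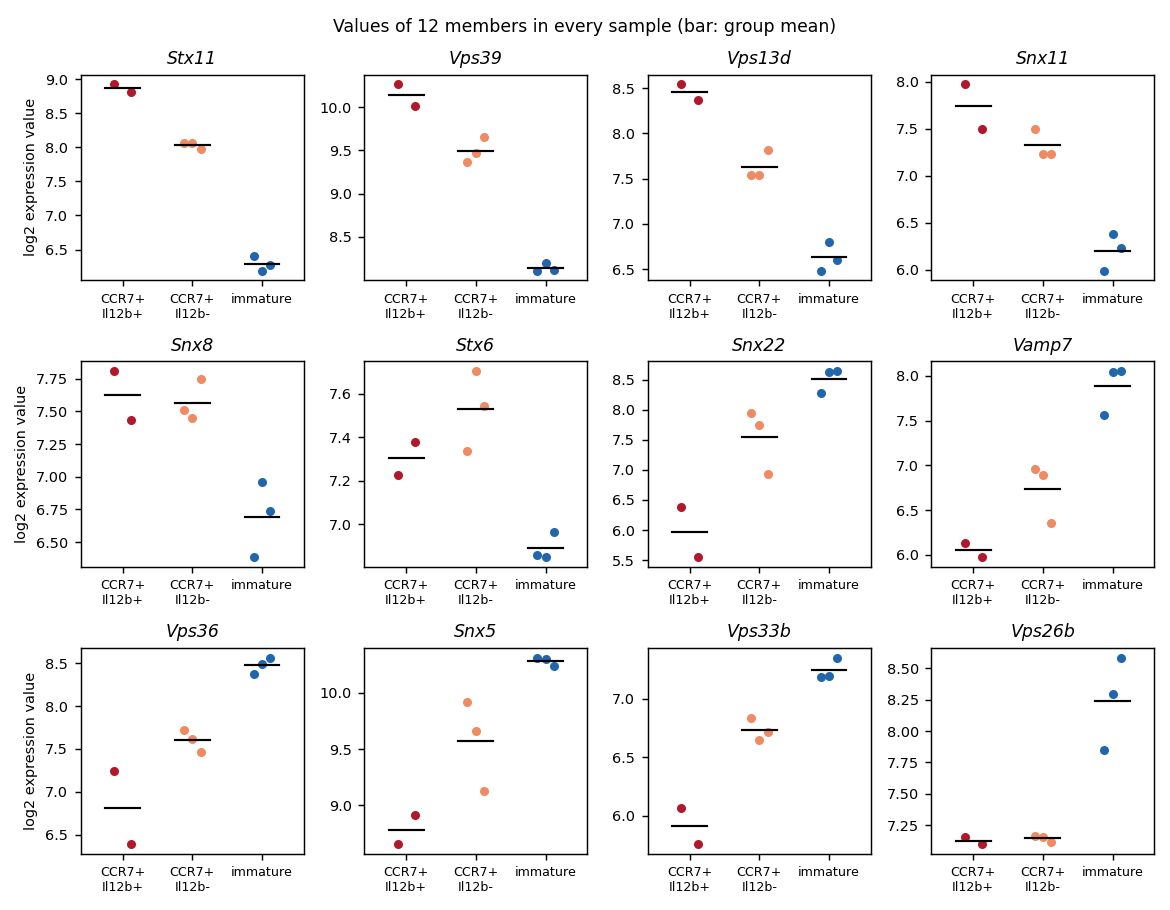
Log2 expression value (y axis, a separate scale in each panel) of 12 members in every sample by group (x axis), with each dot a sample and each bar a group mean. The first 6 panels show members higher in the matured fractions and the last 6 members lower in them. Vps26b is near 7.1 in all 5 matured samples and between 7.85 and 8.58 in the immature ones.

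None of the 19 ESCRT genes among the 95 members was called higher against immature cells in either fraction. Of all genes, 14.1% rose in CCR7+Il12b+ cells and 9.1% in CCR7+Il12b- cells. Array weights gave 1 such call among the 19, of an ESCRT-I gene in CCR7+Il12b- cells. Of the ESCRT-I genes Vps28 fell, by 0.64 ± 0.15 in CCR7+Il12b+ cells (adjusted p = 0.00598, but 0.0742 without CCR7+Il12b+ replicate 2) and by 0.47 ± 0.13 in CCR7+Il12b- cells (adjusted p = 0.0245, but 0.0807 without CCR7+Il12b- replicate 3 and 0.08 to 0.0973 without CCR7+Il12b- replicate 2 or immature replicate 2 or 3), and Vps37a, Vps37b, Vps37c and Vps37d were not called. Both ESCRT-II genes among the members fell in CCR7+Il12b+ cells, where 17.9% of all genes fell. Snf8, an ESCRT-II gene outside the members, was called in neither fraction. Its values were 8.04 and 7.99 in CCR7+Il12b+, 8.18, 7.93 and 7.63 in CCR7+Il12b- and 8.07, 8.24 and 8.59 in immature cells. Vps36, the subunit that binds ubiquitin, was at 7.24 and 6.39 in CCR7+Il12b+ cells, at 7.72, 7.61 and 7.47 in CCR7+Il12b- cells and at 8.37, 8.49 and 8.56 in immature cells. It differed by -1.66 ± 0.21 (3.17-fold lower, adjusted p = 8.26e-05) and -0.88 ± 0.18 (1.84-fold lower, adjusted p = 0.00509). Vps25, which starts the ESCRT-III filament, was at 7.62 and 7.43, at 8.52, 8.27 and 7.74, and at 8.39, 8.76 and 8.91. Its fall of 1.16 ± 0.22 in CCR7+Il12b+ cells was called (adjusted p = 0.00154), and its difference of -0.51 ± 0.19 in CCR7+Il12b- cells was not, with overlapping samples. Among the 12 ESCRT-III and Vps4 genes, 3 fell in CCR7+Il12b+ cells and 2 in CCR7+Il12b- cells. That is 25% and 16.7%, beside 17.9% and 14.5% of all genes. The 3 falls were 5 under median centring. The 2 falls, Chmp1b and Chmp5, were 0 without CCR7+Il12b- replicate 3 (adjusted p = 0.0551 and 0.0659) or immature replicate 2 (0.0754 and 0.0659), and 1 without CCR7+Il12b- replicate 2 or immature replicate 3, which ended the call of Chmp5 (0.0755 and 0.0576). In CCR7+Il12b+ cells Chmp5 differed by -0.92 ± 0.18 (adjusted p = 0.00242), Chmp1b by -0.88 ± 0.20 (adjusted p = 0.00611, but 0.0859 without CCR7+Il12b+ replicate 2) and Chmp1a by -0.47 ± 0.12 (adjusted p = 0.00894, but 0.0603 without CCR7+Il12b+ replicate 2). The core filament genes Chmp2a, Chmp2b, Chmp3 and Chmp4b were not called in either fraction. The ATPase Vps4b differed by 0.06 ± 0.12 and -0.01 ± 0.10, and Vps4a by -0.49 ± 0.18 (adjusted p = 0.059) and -0.34 ± 0.16 (adjusted p = 0.162).

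The other ESCRT genes, 16 measured of 19 listed, had 2 rises and 6 falls in CCR7+Il12b+ cells and 2 rises and 5 falls in CCR7+Il12b- cells, with medians of -0.23 and -0.24. The shares rising were 12.5% and 12.5%, beside 14.1% and 9.1% of all genes, and the shares falling 37.5% and 31.2%, beside 17.9% and 14.5%. The 6 falls were 3 without CCR7+Il12b+ replicate 1 or 2 or without immature replicate 2 or 3, and the 5 falls were 3 and 2 without immature replicates 2 and 3. Without immature replicate 2 the 2 rises in CCR7+Il12b- cells were 0, and they were 1 without CCR7+Il12b- replicate 1 or 3 or immature replicate 1 or 3. Stam2, which with Hgs first captures ubiquitinated receptors, was at 8.34 and 8.37 in CCR7+Il12b+ cells, at 7.89, 7.75 and 7.89 in CCR7+Il12b- cells and at 7.43, 7.50 and 7.51 in immature cells, and rose in CCR7+Il12b+ cells by 0.88 ± 0.11 (adjusted p = 8.43e-05). Ptpn23, an adaptor in receptor sorting, rose by 0.97 ± 0.18 (adjusted p = 0.00143). Tsg101, the ESCRT-I subunit that recognises ubiquitin, was at 7.35 and 6.78, at 7.73, 7.22 and 7.02, and at 7.97, 8.16 and 8.23, and fell by 1.05 ± 0.21 (adjusted p = 0.00275) and 0.80 ± 0.19 (adjusted p = 0.0111). Vta1, the activator of the Vps4 ATPases, was at 7.24 and 7.05, at 8.47, 8.36 and 7.52, and at 8.82, 8.86 and 8.89, and fell in CCR7+Il12b+ cells by 1.72 ± 0.23 (adjusted p = 0.000158). Mvb12b, an ESCRT-I subunit, fell by 1.67 ± 0.20 (adjusted p = 6.06e-05) and 1.21 ± 0.18 (adjusted p = 0.00056).

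Of the 4 core retromer genes, Vps26b fell in both fractions. Retromer holds either Vps26a or Vps26b together with Vps35 and Vps29. Vps26b was at 7.16 and 7.10 in CCR7+Il12b+ cells, at 7.17, 7.16 and 7.12 in CCR7+Il12b- cells and at 7.85, 8.29 and 8.58 in immature cells. All 5 matured samples lay together below the immature ones, which differed among themselves. The difference was -1.11 ± 0.18 in CCR7+Il12b+ cells (2.16-fold lower, adjusted p = 0.000546) and -1.09 ± 0.16 in CCR7+Il12b- cells (2.13-fold lower, adjusted p = 0.00056). Vps26a differed by 0.32 ± 0.17 and -0.02 ± 0.15, with 95% intervals from -0.05 to 0.69 and from -0.35 to 0.32. Vps35 differed by 0.02 ± 0.19 and -0.17 ± 0.17, and Vps29 by -0.32 ± 0.14 (adjusted p = 0.109) and -0.36 ± 0.13 (adjusted p = 0.0618), none of them called. That Vps26b and Vps26a differ from each other was not tested. In retriever, a relative of retromer, Vps35l rose in CCR7+Il12b+ cells by 0.38 ± 0.11 (adjusted p = 0.0258), a call lost without CCR7+Il12b+ replicate 1 (adjusted p = 0.112), without immature replicate 1 (0.0573) or 2 (0.089), and under median centring (0.176) or a mean-variance trend (0.0595). Vps26c was not called.

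The sorting nexins with a BAR domain bend the tubules in which retromer cargo leaves. Of 12 such genes, 2 rose and 5 fell in CCR7+Il12b+ cells, and 1 rose and 4 fell in CCR7+Il12b- cells. The shares falling were 41.7% and 33.3%, beside 17.9% and 14.5% of all genes. The shares rising were 16.7% and 8.33%, near the 14.1% and 9.1% of all genes. The 2 rises were 1 without CCR7+Il12b+ replicate 1 or immature replicate 3, under median centring, a quantile step or a replicate block. Snx1, Snx2 and Snx5 fell, 3 of the 4 genes of the tubule coat that pairs Snx1 or Snx2 with Snx5 or Snx6. Snx5 was at 8.65 and 8.91 in CCR7+Il12b+ cells, at 9.91, 9.66 and 9.13 in CCR7+Il12b- cells and at 10.31, 10.30 and 10.24 in immature cells, with differences of -1.50 ± 0.19 (2.83-fold lower, adjusted p = 0.000116) and -0.71 ± 0.17 (1.64-fold lower, adjusted p = 0.0117). Snx2 was at 8.37 and 7.95, at 9.05, 8.72 and 8.57, and at 9.61, 9.50 and 9.51, and fell by 1.38 ± 0.16 (adjusted p = 6.46e-05) and 0.76 ± 0.15 (adjusted p = 0.00325). In both genes the groups formed separate bands, with CCR7+Il12b- in the middle. Snx1 was at 8.07 and 7.46, at 8.44, 8.11 and 7.91, and at 8.68, 8.82 and 8.92, and fell in CCR7+Il12b+ cells by 1.04 ± 0.20 (adjusted p = 0.00165). Its fall of 0.65 ± 0.17 in CCR7+Il12b- cells (adjusted p = 0.0192) was lost without CCR7+Il12b- replicate 2 (0.0596) or 3 (0.077) and without immature replicate 2 (0.0634) or 3 (0.0781). Snx6 was not called, and its 95% intervals ran from -0.12 to 0.55 and from -0.32 to 0.28.

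Snx30 fell by 0.96 ± 0.13 in CCR7+Il12b+ cells (adjusted p = 0.000209) and by 0.54 ± 0.12 in CCR7+Il12b- cells (adjusted p = 0.00701). Snx8, which acts in traffic from endosomes to the trans-Golgi network, went up instead. It was at 7.81 and 7.43 in CCR7+Il12b+ cells, at 7.51, 7.45 and 7.75 in CCR7+Il12b- cells and at 6.38, 6.96 and 6.74 in immature cells, a rise of 0.93 ± 0.18 (adjusted p = 0.00206) and 0.87 ± 0.16 (adjusted p = 0.00246). Snx32, the last called riser of this class, was at least 1.40-fold higher in CCR7+Il12b+ cells, at a mean of 5.50 against 4.88 in immature cells, which is below the mark (adjusted p = 0.0262). That call was lost without CCR7+Il12b+ replicate 1 (adjusted p = 0.148) or immature replicate 3 (0.0933), and under a replicate block (0.0614), median centring (0.076) or a quantile step (0.0692). Snx9, of clathrin-mediated uptake, differed by -0.58 ± 0.18 in CCR7+Il12b+ cells (adjusted p = 0.0322), a call lost without CCR7+Il12b+ replicate 1 (0.164) or 2 (0.0574) and without immature replicate 2 (0.0836) or 3 (0.116), and under a replicate block (0.0729) or a quantile step (0.0586). Snx4 and Snx18 were not called. The FERM sorting nexins Snx17 and Snx27 link cargo to retriever and retromer. Neither was called in CCR7+Il12b+ cells, and Snx17 differed by -0.44 ± 0.14 in CCR7+Il12b- cells (adjusted p = 0.0452, and 0.155 without CCR7+Il12b- replicate 3, 0.137 without immature replicate 2, 0.166 without immature replicate 3 and 0.0512 without either CCR7+Il12b+ replicate, with 0.0512 to 0.0744 under 5 further settings).

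Of the 15 other sorting nexins, 4 rose and 6 fell in CCR7+Il12b+ cells (26.7% and 40%, beside 14.1% and 17.9% of all genes) and 2 rose and 5 fell in CCR7+Il12b- cells (13.3% and 33.3%, beside 9.1% and 14.5%). The 6 falls were 3 without CCR7+Il12b+ replicate 1. The 5 falls were 3 without CCR7+Il12b- replicate 2 or 3, 0 without immature replicate 2 and 1 without immature replicate 3, and the 2 rises were 1 without any 1 of the CCR7+Il12b- and immature samples other than CCR7+Il12b- replicate 3, and also under median centring, a quantile step, a mean-variance trend or either replicate block. Snx22, a small sorting nexin with a PX domain, which binds phosphoinositides, had the largest fall of all members in CCR7+Il12b+ cells. It was at 6.38 and 5.54 in CCR7+Il12b+ cells, at 7.95, 7.74 and 6.93 in CCR7+Il12b- cells and at 8.27, 8.63 and 8.65 in immature cells. The samples of each matured group were spread over more than 0.8 log2 units, and the groups did not overlap. The difference was -2.56 ± 0.30 in CCR7+Il12b+ cells (5.88-fold lower, adjusted p = 5.4e-05) and -0.98 ± 0.27 in CCR7+Il12b- cells (1.97-fold lower, adjusted p = 0.0208), the second call being lost without CCR7+Il12b- replicate 3 (0.0649), immature replicate 2 (0.0748) or immature replicate 3 (0.0755). Snx24 fell in CCR7+Il12b+ cells by 0.91 ± 0.19 (adjusted p = 0.00329) and Snx3, the cargo adaptor of retromer, by 0.85 ± 0.18 (adjusted p = 0.0035). Snx21 fell there by 0.54 ± 0.14 (adjusted p = 0.0113, but 0.0926 without CCR7+Il12b+ replicate 1). The falls of Snx12 (0.55 ± 0.18, adjusted p = 0.0338) and Snx29 (0.51 ± 0.16, adjusted p = 0.0289) in CCR7+Il12b+ cells were lost without CCR7+Il12b+ replicate 1 (0.0998 and 0.188), immature replicate 2 (0.0847 and 0.0909) or immature replicate 3 (0.121 and 0.0759), that of Snx12 also without CCR7+Il12b+ replicate 2 (0.132) and under a replicate block (0.0879), and that of Snx29 under a replicate block (0.0503) and with the mean of its probe sets (0.236).

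Snx11 and Snx10 are close relatives, and Snx10 is known for acidification and bone resorption in osteoclasts. Snx11 was at 7.98 and 7.50 in CCR7+Il12b+ cells, at 7.50, 7.23 and 7.23 in CCR7+Il12b- cells and at 5.99, 6.38 and 6.23 in immature cells. Every matured sample was above every immature one, with a difference of 1.54 ± 0.17 (2.90-fold, adjusted p = 3.7e-05) and 1.12 ± 0.15 (2.17-fold, adjusted p = 0.000349). Snx10 was at 8.72 and 8.33, at 7.94, 7.73 and 8.35, and at 7.61, 7.83 and 7.99. Its rise of 0.71 ± 0.19 in CCR7+Il12b+ cells (adjusted p = 0.0145) was lost without CCR7+Il12b+ replicate 1 (0.12) and under median centring (0.0587), and the CCR7+Il12b- samples overlapped the immature ones. Snx16, of late endosomes, rose in CCR7+Il12b+ cells by 0.71 ± 0.15 (adjusted p = 0.00333), and Snx25 by 0.68 ± 0.13 (adjusted p = 0.00162). Snx14, Snx15, Snx19 and Snx20 were called in neither fraction.

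Of the 7 HOPS and CORVET genes, 2 rose in CCR7+Il12b+ cells (1 without CCR7+Il12b+ replicate 1), 1 rose in CCR7+Il12b- cells and none was called lower, where 14.1% and 9.1% of all genes rose and 17.9% and 14.5% fell. Vps39, the HOPS subunit that brings late endosomes to lysosomes, was at 10.27 and 10.01 in CCR7+Il12b+ cells, at 9.37, 9.47 and 9.66 in CCR7+Il12b- cells and at 8.11, 8.20 and 8.11 in immature cells. The 3 groups were separate, and the difference was 2.00 ± 0.13 (3.99-fold, adjusted p = 8.09e-07) and 1.36 ± 0.12 (2.56-fold, adjusted p = 1.39e-05). The other HOPS genes Vps11, Vps16, Vps18, Vps33a and Vps41 were not called, with differences between -0.22 for Vps41 and 0.12 for Vps18 in CCR7+Il12b+ cells. Vps8, which belongs to CORVET and early endosomes, rose in CCR7+Il12b+ cells by 0.54 ± 0.14 (adjusted p = 0.0105, and 0.0503 without CCR7+Il12b+ replicate 1). Vps33b, plotted with these genes but pairing with Vipas39 in a separate complex, was at 6.07 and 5.76 in CCR7+Il12b+ cells, at 6.83, 6.65 and 6.71 in CCR7+Il12b- cells and at 7.19, 7.19 and 7.35 in immature cells. It fell by 1.33 ± 0.13 (2.52-fold lower, adjusted p = 1.47e-05) and 0.51 ± 0.12 (1.43-fold lower, adjusted p = 0.00802). Vipas39 itself fell by 0.74 ± 0.18 (adjusted p = 0.00809, but 0.101 without CCR7+Il12b+ replicate 2) and 0.72 ± 0.16 (adjusted p = 0.00706).

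In the GARP and EARP complexes, which receive carriers at the trans-Golgi network and at recycling endosomes and share Vps51, Vps52 and Vps53, Vps50 is the EARP subunit and Vps54 the GARP one. Vps50 was at 5.78 and 5.70 in CCR7+Il12b+ cells, at 6.98, 6.37 and 6.30 in CCR7+Il12b- cells and at 6.94, 6.80 and 7.09 in immature cells. Its fall of 1.21 ± 0.19 in CCR7+Il12b+ cells was called (2.31-fold lower, adjusted p = 0.000462), and its -0.40 ± 0.17 in CCR7+Il12b- cells was not, with overlapping samples. Vps53 fell in CCR7+Il12b+ cells by 0.59 ± 0.12 (adjusted p = 0.0036). Vps51 rose there by 0.48 ± 0.12 (adjusted p = 0.0102, but 0.0602 without CCR7+Il12b+ replicate 1 and 0.0568 under median centring), and Vps52 and Vps54 were not called. Of the 4 VPS13 proteins, which pass lipids between membranes, Vps13d acts at mitochondria and peroxisomes. Vps13d was at 8.55 and 8.36 in CCR7+Il12b+ cells, at 7.54, 7.54 and 7.82 in CCR7+Il12b- cells and at 6.48, 6.80 and 6.60 in immature cells. It rose by 1.83 ± 0.14 (3.54-fold, adjusted p = 2.47e-06) and 1.003 ± 0.13 (2.003-fold, adjusted p = 0.000202). A second Vps13d probe set, at a mean of 4.81 that is below the mark, differed by only 0.37 and 0.17 (adjusted p over all probe sets 0.0853 and 0.421). So dim a probe set cannot settle the size of the change. Vps13a, Vps13b and Vps13c were not called, nor were Vps72, a chromatin gene that shares only the name, and Vps9d1.

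In CCR7+Il12b- cells 11 further calls were small. Chmp1b fell by 0.71 ± 0.18, Chmp5 by 0.61 ± 0.16, Snx24 by 0.57 ± 0.17, Snx3 by 0.54 ± 0.16, Snx21 by 0.53 ± 0.12, Stx7 by 0.47 ± 0.15, Vps28 by 0.47 ± 0.13, Vps53 by 0.42 ± 0.11, Snx13 by 0.41 ± 0.12 and Stx16 by 0.35 ± 0.11, and Snx25 rose by 0.34 ± 0.11. Their adjusted p ran from 0.00949 for Snx21 to 0.0498 for Snx25. All 11 were lost without immature replicate 2, with adjusted p from 0.0512 for Snx21 to 0.141 for Snx25, and all but Snx21 also without at least 1 other sample.

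The partners of retromer and of the tethers moved both ways. Of 20 WASH, retromer partner and COMMD genes measured of 25 listed, 4 rose and 7 fell in CCR7+Il12b+ cells and 3 rose and 5 fell in CCR7+Il12b- cells, with medians of -0.17 and -0.21. The shares rising were 20% and 15%, beside 14.1% and 9.1% of all genes, and the shares falling 35% and 25%, beside 17.9% and 14.5%. The 4 rises were 2 without CCR7+Il12b+ replicate 1, the 7 falls 3 without CCR7+Il12b+ replicate 2, and the 5 falls 3 without CCR7+Il12b- replicate 3 or immature replicate 3. Ankrd27, which binds both Vps29 and Vamp7, was at 7.91 and 7.83 in CCR7+Il12b+ cells, at 7.42, 7.55 and 7.97 in CCR7+Il12b- cells and at 6.39, 6.47 and 6.63 in immature cells. It rose by 1.38 ± 0.16 (adjusted p = 5.45e-05) and 1.15 ± 0.14 (adjusted p = 0.000199). Washc2, the WASH subunit that binds retromer, rose by 1.16 ± 0.16 (adjusted p = 0.000208) and 0.88 ± 0.14 (adjusted p = 0.00114), and Commd8 fell by 0.89 ± 0.15 (adjusted p = 0.000739) and 0.83 ± 0.13 (adjusted p = 0.000966). Of the 8 class III phosphatidylinositol kinase and tether partner genes, 2 rose and 2 fell in CCR7+Il12b+ cells (25% each, beside 14.1% and 17.9% of all genes) and 2 rose and 1 fell in CCR7+Il12b- cells (25% and 12.5%, beside 9.1% and 14.5%), and the 2 falls were 1 without CCR7+Il12b+ replicate 2. Uvrag, a kinase subunit that also binds HOPS, was at 10.90 and 10.73, at 10.62, 10.64 and 10.96, and at 9.61, 9.77 and 9.68, and rose by 1.13 ± 0.14 (adjusted p = 6.92e-05) and 1.05 ± 0.12 (adjusted p = 0.000121). Nrbf2 rose by 0.97 ± 0.12 (adjusted p = 0.000116) and 0.61 ± 0.11 (adjusted p = 0.00233). Pik3c3, the kinase that makes the lipid bound by sorting nexins, fell in CCR7+Il12b+ cells by 0.63 ± 0.14 (adjusted p = 0.00397).

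Between the matured fractions, CCR7+Il12b+ cells had 4 members higher and 7 lower than CCR7+Il12b- cells. That is 11.6% of the members, where 7.08% of all genes were called, with 4.21% higher beside 2.61% of all genes and 7.37% lower beside 4.47%. The median member differed by 0.00, the median of all genes by 0.02. Stx11 (0.84 ± 0.12, 1.79-fold, adjusted p = 0.00146), Vps13d (0.82 ± 0.14, adjusted p = 0.00547), Vps39 (0.64 ± 0.13, adjusted p = 0.0133) and Stx3 (0.45 ± 0.12, adjusted p = 0.0463) were higher. Snx22 (-1.58 ± 0.30, 2.98-fold lower, adjusted p = 0.00939), Vps33b (-0.82 ± 0.13, 1.76-fold lower, adjusted p = 0.00359), Vps50 (-0.81 ± 0.19, adjusted p = 0.0261), Vps36 (-0.79 ± 0.21, adjusted p = 0.0443), Snx5 (-0.79 ± 0.19, adjusted p = 0.034), Snx2 (-0.62 ± 0.16, adjusted p = 0.0474) and Chmp1a (-0.47 ± 0.12, adjusted p = 0.0312) were lower. For Chmp1a the CCR7+Il12b+ samples, at 5.84 and 5.72, lay apart from the CCR7+Il12b- samples at 6.27, 6.21 and 6.29, which overlapped the immature ones at 6.14, 6.36 and 6.23. Among the related genes Stxbp3 was higher by 0.81 ± 0.15 (adjusted p = 0.00841, but 0.0826 without CCR7+Il12b+ replicate 1), the only call among the 27 other SNAREs and fusion factors. Of the 16 other ESCRT genes Stam2 was higher by 0.51 ± 0.11 (adjusted p = 0.0175) and Vta1 lower, at -0.97 ± 0.23 (adjusted p = 0.0288). Of the 20 WASH, retromer partner and COMMD genes Tbc1d5, a regulator that binds Vps29, was lower, at -0.59 ± 0.13 (adjusted p = 0.0179, but 0.78 with the mean of its probe sets), and none of the 8 kinase and tether partners was called. The calls of Stam2, Vta1 and Tbc1d5 were lost without CCR7+Il12b+ replicate 1 (0.0679, 0.103 and 0.091), CCR7+Il12b+ replicate 2 (0.0668, 0.161 and 0.0664) or CCR7+Il12b- replicate 2 (0.073, 0.104 and 0.0597), and those of Vta1 and Tbc1d5 without CCR7+Il12b- replicate 1 (0.0825 and 0.0551).

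**Figure D4:**
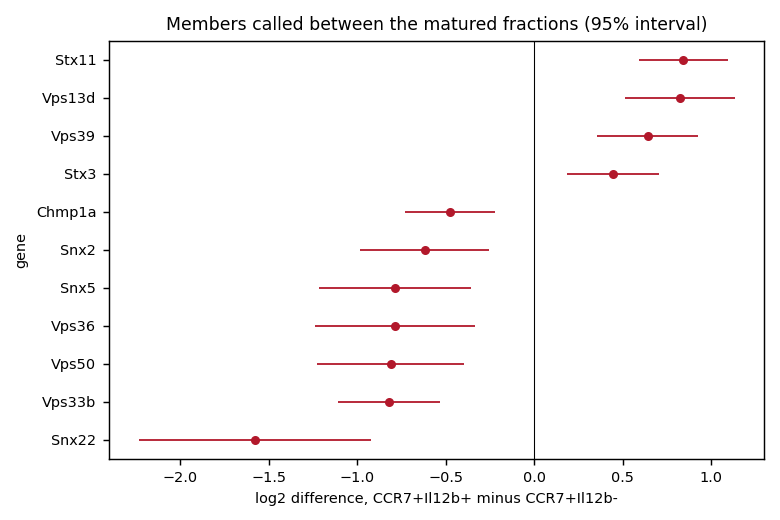
Difference between CCR7+Il12b+ and CCR7+Il12b- cells (x axis, log2, CCR7+Il12b+ minus CCR7+Il12b-) of the 11 members called in that comparison (y axis), with dots for the estimate and lines for the 95% interval. Stx11 is at 0.84 at the top and Snx22 at -1.58 at the bottom, with the widest interval.

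These calls rest on 2 CCR7+Il12b+ samples, and 2 of the 11, Stx11 and Vps33b, were kept under all 17 alternatives tried. Without CCR7+Il12b- replicate 3 there were 4 higher and 11 lower members. Without CCR7+Il12b+ replicate 1 there were 1 higher and 4 lower, as the calls of Vps39 (adjusted p = 0.105), Vps13d (0.0558), Stx3 (0.217), Vps50 (0.108), Snx5 (0.198) and Chmp1a (0.0729) were lost. Without CCR7+Il12b+ replicate 2 there was 1 lower member, as those of Snx22 (0.0933), Vps50 (0.131), Vps36 (0.244), Snx5 (0.0756), Snx2 (0.292) and Chmp1a (0.135) were lost. Without CCR7+Il12b- replicate 1 there were 3 lower, with adjusted p of 0.118 for Vps36, 0.0885 for Snx5, 0.132 for Snx2, 0.0835 for Chmp1a and 0.0899 for Stx3. Without CCR7+Il12b- replicate 2 there were 2 higher and 3 lower, with 0.0522 for Vps39, 0.0965 for Stx3, 0.118 for Vps36, 0.111 for Snx5, 0.104 for Snx2 and 0.0754 for Chmp1a. Without CCR7+Il12b- replicate 3 those of Stx3 (0.086) and Chmp1a (0.0519) were lost. Leaving out immature replicate 1 ended the calls of Stx3 (0.0586), Vps36 (0.0535) and Snx2 (0.0595). Leaving out immature replicate 2, or 3, ended those of Stx3 (0.0838, 0.0791), Vps36 (0.073, 0.0652), Snx5 (0.0595, 0.0542), Snx2 (0.0802, 0.074) and Chmp1a (0.0503, 0.0565). With the compared groups only, 6 calls were lost, those of Stx3 (0.124), Snx2 (0.113), Vps36 (0.0979), Snx5 (0.0849), Chmp1a (0.0774) and Vps50 (0.0612), and under further settings those of Stx3, Vps36, Snx2, Chmp1a and Vps50 were lost at adjusted p between 0.0536 and 0.114. Vamp7 and Vps45, both lower in CCR7+Il12b+ cells without overlap, differed by -0.68 ± 0.20 (adjusted p = 0.0711) and -0.88 ± 0.25 (adjusted p = 0.0666) and were not called. Vps26b differed by -0.02 ± 0.18, with a 95% interval from -0.41 to 0.37.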

How the data were processed

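RNA of 8 sorted samples was hybridised to 1 array each. Per the labels' protocols, 3 or 20 ng of RNA was amplified and labelled, with no label saying which sample had which input. The authors deposited log2 expression values, summarised by probe set, which per the submitters' processing notes came from RMA in oligo, with versions not given in the sources used here. Array medians ran from 5.25 to 5.46. RMA's scaling hides a change in total RNA per cell, and the number of arrays limits precision.

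Of 35556 probe sets, 21789 had 1 symbol, 1621 had several and 12146 none. For 999 genes with more than 1 the brightest was used, which gave 19938 genes. The background mark (4.98) is the value under which 95% of 1190 receptor genes of smell and the vomeronasal organ fall. A called change with a group below it is given as a bound, per array the higher of mark and value standing for that group. For Scfd2 and Napb only the values are given. All samples entered 1 fit of 3 group means in limma 3.58.1 (R 4.3.3, lmFit and eBayes), with 5 residual degrees of freedom, checked on simulated data. Tests were two-sided. No gene was removed before testing.

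Members and lists were chosen with earlier results of these data known. Genes named are up to 4 called rises and falls per comparison and family, retromer and Vps4 genes, up to 4 called genes per related list, and any other member to account for it. Stxbp2, Vipas39 and Pik3c3 were added as partners of named members, Snf8 as a further ESCRT-II gene and Scfd2 as a further Munc18-type gene. Alternatives left out each sample, added a replicate block (fixed or random), fitted the compared groups only, centred medians, added a quantile step, kept genes above background, averaged probe sets, used a mean-variance trend or weighted arrays.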

Additional observations from a re-analysis of the deposited data

How the results depend on the processing

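Of 1411 recomputed values of called members, 1237 kept direction and call, 174 lost the call and 0 turned direction. Of 1036 for called related genes 106 lost it and 0 turned. Leaving out 1 sample gave 6 to 8 rises and 10 to 26 falls in CCR7+Il12b- against immature cells (main values 7 and 23), 12 to 15 and 23 to 28 in CCR7+Il12b+ against immature cells (15 and 27), and 1 to 5 and 1 to 11 in CCR7+Il12b+ against CCR7+Il12b- cells (4 and 7). The last lower count was 2 with the compared groups only, where fewer samples estimate the spread, and 4 with array weights, for which the cause was not tested. Against immature cells 16 of 30 calls in CCR7+Il12b- and 27 of 42 in CCR7+Il12b+ cells were kept under all 17 alternatives. The labels do not say whether a shared replicate number means a shared mouse or day. Deviations from the group means correlated, for same-numbered samples, at -0.169, 0.0581 and -0.159 between CCR7+Il12b- and immature cells. They correlated at -0.167 and -0.0757 between CCR7+Il12b+ and immature cells, and at 0.216 and 0.0932 between the matured fractions. Differently numbered samples of the matured fractions gave -0.216 to 0.123. With 2 or 3 samples per group these deviations are tied to each other, so the correlations cannot decide on pairing. With a replicate block there were 7 rises and 21 falls, 14 and 24, and 3 and 5 in the 3 comparisons in the order above. Of 408 counts over the related lists 41 moved by more than 1.5 times. No group had the 4 samples that a test for an outlying sample needs.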
